A study of Mus musculus with 4 samples.

Results

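The 10 genes described here are 8 matrix metalloproteinases (Mmp2, Mmp3, Mmp8, Mmp9, Mmp12, Mmp13, Mmp14 and Mmp19) and 2 of their tissue inhibitors (Timp1 and Timp2). They were taken by symbol from the 32285 genes listed for each library, with earlier results of these data known when the list was chosen. Single-cell RNA-seq had been run on tumors of MC38 cells, a mouse colon adenocarcinoma line, grown under the skin of syngeneic C57BL/6 mice from an injection with Matrigel. Each of the 4 groups, WT IgG and A159V IgG as controls and WT anti-PD1 and A159V anti-PD1 as treated tumors, had 1 library. WT tumors came from parental RAC1 wild-type MC38 cells, and A159V tumors from MC38 cells with the RAC1 A159V mutation, made homozygous at the endogenous locus by CRISPR-Cas9. The antibody was a blocking antibody to PD1 (RMP1-14) or an IgG isotype control, injected repeatedly, and all tumors were harvested on the same day. Only the tumor cells carried the mutation, and every host cell (macrophages, neutrophils and fibroblasts included) was RAC1 wild-type in all 4 groups. The A159V line was by the study's account shown as a single clone unless stated otherwise, and the number of mice behind each library was not given in the sources used here. A point mutation cannot be checked from counts per gene. With 1 library per group there is no replicate error and no test, so every interval below is a 95% interval for counting error alone, and a difference between libraries may be a difference between tumors.

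Matrix metalloproteinases are zinc-dependent proteases that are made as inactive proenzymes and cut collagens, gelatin, laminins, elastin, growth factors and chemokines. Most are secreted, whereas Mmp14 sits in the plasma membrane, and the inhibitors Timp1 and Timp2 bind to the active site of the mature enzymes. In tumors they are made largely by stromal fibroblasts and myeloid cells, with Mmp8 and Mmp9 stored in neutrophil granules and Mmp12 known as macrophage elastase. The comparison therefore asks which cells of the tumor carried each transcript, and whether genotype or anti-PD1 went with a different level in the same kind of cell.

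Cells were grouped without the 10 genes and named from marker lists. After filtering, 6867, 6466, 7603 and 8248 cells were analysed, first WT IgG, then WT anti-PD1, then A159V IgG, then A159V anti-PD1. The libraries held between 54402632 and 125227747 unique molecular identifiers (UMIs), the molecule count of this assay. Macrophage-like cells (monocytes included) numbered 2989, 1940, 2826 and 3729 in that order, neutrophil-like cells 95, 565, 105 and 216, fibroblast-like cells 132, 1610, 179 and 165 and tumor-like cells 2033, 24, 2804 and 2098. The fibroblast-like class of WT IgG depended on the clustering, with 826 cells in place of 132 when each library was clustered alone, so each fibroblast level and ratio that uses WT IgG rests on how those cells were classed. WT anti-PD1 stood apart: 24.9% of its cells were fibroblast-like against 1.92 to 2.35% in the other 3 libraries, and 0.371% were tumor-like. CD45+ and CD45− cells had been separated on beads and remixed at a set ratio, so these shares are not those of the tumors. Of the defining markers, 11 of 11 were detected for fibroblasts, 12 of 12 for macrophages and 10 of 10 for neutrophils, but only 3 of 10 for tumor cells (Prl2c2, Prl2c3 and Rhox5), with keratins and Epcam at or near 0. Any pair of libraries shared 13 to 22 cell barcodes. Levels are CPM, the summed UMIs of a gene in a class, scaled so that each class has the same total.

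A group of 4 of the genes lie together on chromosome 9, and their promoters are printed because these neighbours split between cell types in the results below. In GENCODE vM21 (GRCm38), Mmp13 (9:7272514-7283331), Mmp12 (9:7344381-7369499), Mmp3 (9:7445822-7455975) and Mmp8 (9:7558456-7568485) are all on the + strand within 296 kb, with Mmp1b and Mmp10 as the other protein-coding genes between them. The sequences are RefSeq windows on GRCm38.p6, from 250 bases before to 50 bases after an annotated start, read 5′ to 3′ along the gene. Capitals mark the AP-1 motif TGANTCA, which reads the same on both strands and is held by 7.81% of the 32851 mouse promoters of the same length.
Mmp13 (chr9:7272264-7272563, + strand): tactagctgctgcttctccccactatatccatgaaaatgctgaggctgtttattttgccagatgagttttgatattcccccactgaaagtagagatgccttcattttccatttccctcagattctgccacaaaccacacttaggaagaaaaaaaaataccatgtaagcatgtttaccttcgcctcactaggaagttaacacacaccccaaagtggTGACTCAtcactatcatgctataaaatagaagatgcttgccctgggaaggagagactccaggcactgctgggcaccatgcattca
Mmp12, first start (chr9:7344147-7344446, + strand): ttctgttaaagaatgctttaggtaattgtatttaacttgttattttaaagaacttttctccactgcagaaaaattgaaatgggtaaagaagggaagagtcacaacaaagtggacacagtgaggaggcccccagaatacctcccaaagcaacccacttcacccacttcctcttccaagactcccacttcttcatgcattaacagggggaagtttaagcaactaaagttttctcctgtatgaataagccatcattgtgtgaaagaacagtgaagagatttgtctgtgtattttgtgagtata
Mmp12, second start (chr9:7347124-7347423, + strand): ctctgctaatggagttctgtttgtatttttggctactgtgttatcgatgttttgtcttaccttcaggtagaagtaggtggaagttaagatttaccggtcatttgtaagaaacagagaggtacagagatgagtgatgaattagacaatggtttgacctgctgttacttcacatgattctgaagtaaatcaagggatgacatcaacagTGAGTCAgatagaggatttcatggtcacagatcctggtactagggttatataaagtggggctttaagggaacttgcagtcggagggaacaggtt
Mmp3 (chr9:7445572-7445871, + strand): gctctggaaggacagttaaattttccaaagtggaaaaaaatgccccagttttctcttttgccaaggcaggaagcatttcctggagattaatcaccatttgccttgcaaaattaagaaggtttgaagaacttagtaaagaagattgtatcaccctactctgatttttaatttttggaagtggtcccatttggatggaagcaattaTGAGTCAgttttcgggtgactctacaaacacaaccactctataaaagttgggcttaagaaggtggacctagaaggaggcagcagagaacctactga
Mmp8 (chr9:7558179-7558478, + strand): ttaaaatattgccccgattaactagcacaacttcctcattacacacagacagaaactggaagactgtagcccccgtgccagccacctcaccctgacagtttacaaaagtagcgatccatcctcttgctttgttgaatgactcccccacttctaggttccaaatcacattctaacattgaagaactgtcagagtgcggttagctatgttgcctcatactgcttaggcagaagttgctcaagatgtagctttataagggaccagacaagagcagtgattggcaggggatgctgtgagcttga
The motif began 35 bases before the start of Mmp13, 46 before that of Mmp3 and 44 before the second start of Mmp12. It was not in the windows of Mmp8 and the first start of Mmp12. The PU.1 motif GAGGAAGT, searched on both strands and held by 3.2% of promoters, was found 221 bases before the start of Mmp8 and 88 before the first start of Mmp12. The C/EBP motif TTGCNNAA and the TATA box TATAAA were also searched on both strands, and 10.8% and 13.6% of promoters held them. C/EBP matches lay in the windows of Mmp3, Mmp8 and the first start of Mmp12. TATA box matches lay in those of Mmp13, Mmp3, Mmp8 and the second start of Mmp12. Of the 10 genes, 7 had a promoter in the table used, and the windows of Mmp14, Timp1 and Timp2 held none of these motifs. These matches describe letters in a window and are no evidence of binding.

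The other 6 genes lie elsewhere: Mmp2 on chromosome 8 (8:92827291-92853420, + strand), Mmp9 on 2 (2:164940780-164955850, +), Mmp14 on 14 (14:54431612-54445364, +), Mmp19 on 10 (10:128790910-128800824, +), Timp1 on X (X:20870166-20874735, +) and Timp2 on 11 (11:118301069-118355740, −). Timp1 lies inside Syn1, Mmp12 overlaps Mmp1b, and Mmp19 overlaps Gm47093 and Tmem198b, each on the opposite strand, and the 3′ library chemistry marks strand. Timp2 shares its own strand with Cep295nl, so reads in the overlap could have been given to either gene, and the Timp2 values are uncertain to that extent.

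Among the gelatinases, which cut denatured and basement membrane collagen, Mmp2 had its highest level in fibroblast-like cells and Mmp9 in neutrophil-like cells in all 4 libraries. Mmp2 in fibroblast-like cells stood at 605 CPM (572 to 639.8) for WT IgG, 1109 (1096 to 1122) for WT anti-PD1, 665 (627 to 704) for A159V IgG and 1268 (1219 to 1318) for A159V anti-PD1. Both anti-PD1 libraries were above both IgG libraries, and only the intervals of the 2 IgG libraries overlapped. In T-like cells, which should make little of these enzymes and serve as a measure of stray RNA, Mmp2 was at 0.822, 13.9, 0 and 0.619 CPM in the order WT IgG, WT anti-PD1, then A159V IgG, then A159V anti-PD1, which is the order used for all lists of 4 values from here on. The 14.5 CPM of macrophage-like and 20.8 CPM of neutrophil-like cells in WT anti-PD1 were close to the 13.9 and 14.4 CPM of T-like and NK-like cells there. Mmp9 in neutrophil-like cells was at 261 CPM (187 to 354) for WT IgG, 779 (724 to 837) for WT anti-PD1, 192 (134 to 265) for A159V IgG and 193 (148 to 247) for A159V anti-PD1. The WT anti-PD1 value lay above the others, whose intervals overlapped. Outside neutrophils the highest level of Mmp9 in WT IgG was the 13.7 CPM of tumor-like cells, against 1.91 and 1.47 in the A159V libraries. In macrophage-like cells of A159V IgG, 44 of the 56 Mmp9 UMIs came from 1 cell.

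**Figure D1:**
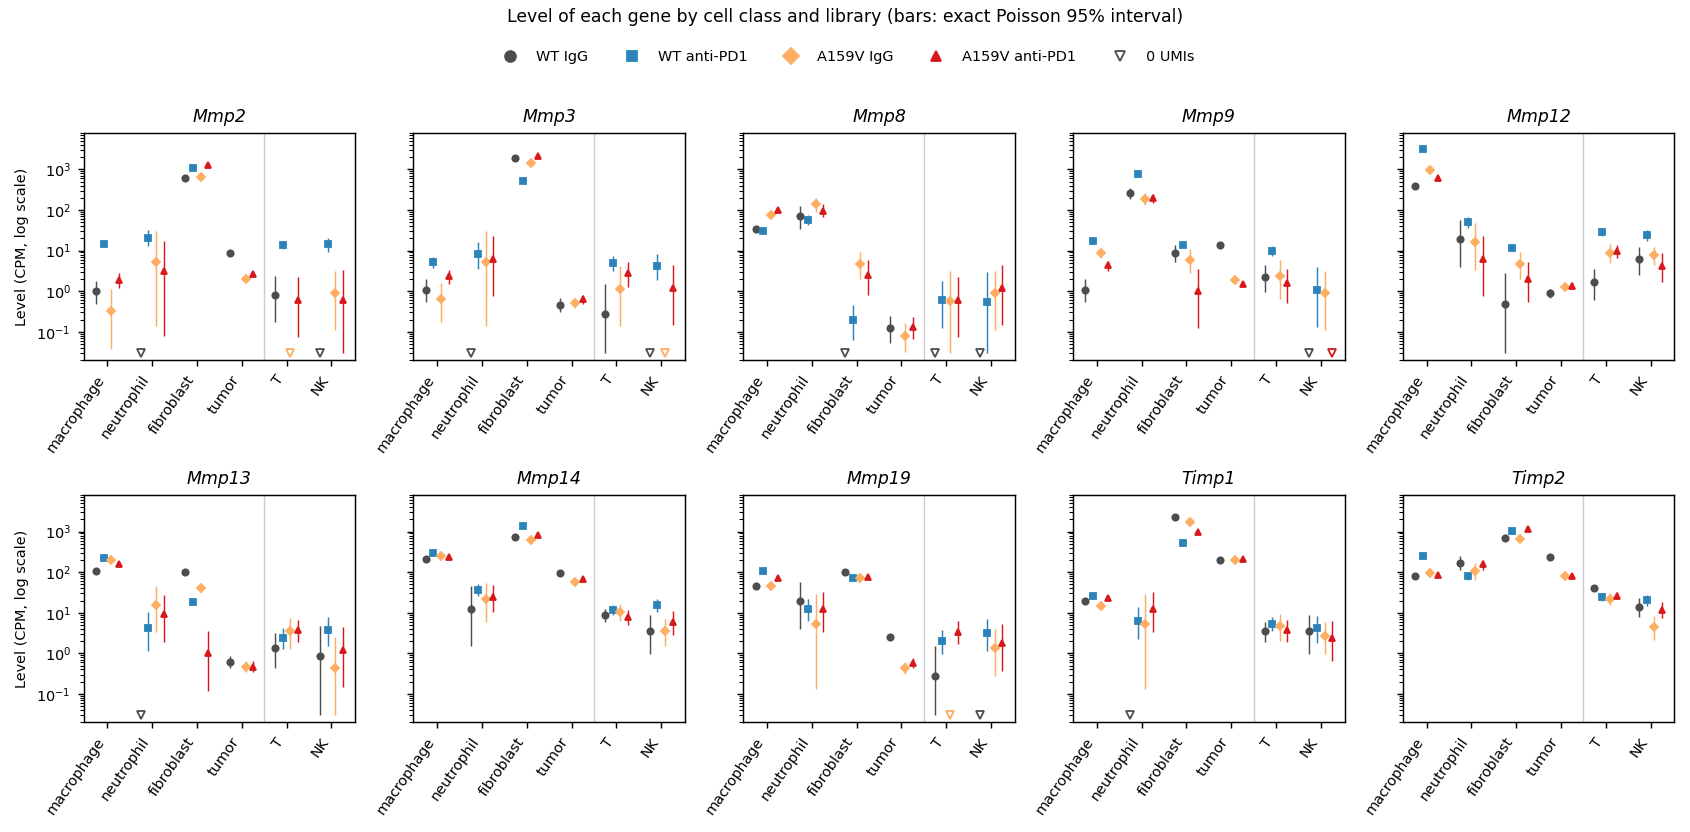
Level of each of the 10 genes (vertical axis, CPM on a log scale) in each class, with 1 point per library (circle, WT IgG; square, WT anti-PD1; diamond, A159V IgG; triangle, A159V anti-PD1); lines are exact Poisson 95% intervals and open triangles at the base mark 0 UMIs. T-like and NK-like cells, right of the grey line, give the level of stray RNA, and the tumor class of WT anti-PD1 (24 cells) is not drawn; Mmp3 stands at 525 to 2096 CPM in fibroblast-like cells and under 10 CPM in the other classes drawn.

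The stromelysin Mmp3, which cuts proteoglycans and activates other proenzymes, was nearly confined to fibroblast-like cells in these 4 libraries. It stood at 1906 CPM (1847 to 1967) for WT IgG, 525 (516 to 534) for WT anti-PD1, 1407 (1351 to 1464) for A159V IgG and 2096 (2033 to 2161) for A159V anti-PD1. WT anti-PD1 was the low library and no intervals overlapped. The next highest class in any library was the neutrophil-like cells of WT anti-PD1 at 8.31 CPM, where T-like cells were at 4.9.

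The collagenases, which cleave triple-helical collagen, had their highest levels in myeloid cells. Mmp13 in macrophage-like cells was at 106 CPM (99.7 to 113) for WT IgG, 228 (218 to 238) for WT anti-PD1, 197 (186 to 209) for A159V IgG and 162 (155 to 169.7) for A159V anti-PD1, with no overlap. In fibroblast-like cells it was at 101.8, 18.5, 41.7 and 0.999 CPM, but 176 of the 208 UMIs in WT IgG and 70 of the 72 in A159V IgG came from 1 cell each. In WT IgG the intervals of the macrophage and fibroblast levels overlapped. Mmp8, the neutrophil collagenase, was at 69.96 CPM (34.9 to 125) for WT IgG, 58.2 (43.9 to 75.5) for WT anti-PD1, 138 (90.4 to 203) for A159V IgG and 96.4 (65.5 to 137) for A159V anti-PD1 in neutrophil-like cells, from only 11, 56, 26 and 31 UMIs, and each interval overlapped that of the next library when ordered by level. In macrophage-like cells Mmp8 was at 34.6 CPM (31.1 to 38.5) for WT IgG, 30.02 (26.6 to 33.8) for WT anti-PD1, 75.1 (68.5 to 82.2) for A159V IgG and 97.6 (91.99 to 103) for A159V anti-PD1. Both A159V libraries were above both WT libraries there, and only the 2 WT intervals overlapped. The class with the higher Mmp8 level was the neutrophils in 3 libraries and the macrophages in A159V anti-PD1, with overlapping intervals in WT IgG and A159V anti-PD1. The summed level of the 10 neutrophil markers in macrophage-like cells was 778, 559.7, 941 and 1055 CPM, and its part in the Mmp8 level was not tested. Outside both classes Mmp8 did not pass 4.63 CPM in the T-like, NK-like, fibroblast-like and tumor-like cells.

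Macrophage elastase, Mmp12, had the widest range among libraries of any of the genes in macrophage-like cells that had 20 CPM or more in each library. Its level there was 401 CPM (388 to 413) for WT IgG, 3141 (3105 to 3178) for WT anti-PD1, 973 (948 to 997) for A159V IgG and 632 (618 to 647) for A159V anti-PD1. WT anti-PD1 was highest, A159V IgG next and WT IgG lowest, with no overlap of intervals. T-like cells held 1.64, 27.98, 8.64 and 9.6 CPM, so stray Mmp12 was also highest in WT anti-PD1. Dendritic-like cells held 10.6, 57.3, 47.8 and 8.64 CPM and neutrophil-like cells 19.1, 49.8, 15.96 and 6.22. In A159V anti-PD1 the class next below macrophages was that of B or plasma cells, with 19 UMIs in 58 cells. The macrophage level there was 8.25 times that of this class.

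The membrane-bound Mmp14, which activates proMmp2 at the cell surface, was well above the level of T-like cells in fibroblast-like, macrophage-like and tumor-like cells. It was at 727 CPM (691 to 765) for WT IgG, 1356 (1341 to 1369.97) for WT anti-PD1, 614 (578 to 652) for A159V IgG and 837 (797 to 878) for A159V anti-PD1 in fibroblast-like cells, 211, 289, 245 and 239.7 CPM in macrophage-like cells and 95.9, 88.4, 56.7 and 67.7 CPM in tumor-like cells, against 8.77, 11.8, 10.4 and 7.74 CPM in T-like cells. Fibroblasts were above macrophages, and macrophages above tumor cells, in all 4 libraries. The intervals of the macrophage values overlapped only between the A159V libraries. Mmp19, which cuts basement membrane proteins, stood at 44.98 CPM (40.9 to 49.3) for WT IgG, 104 (97.6 to 111) for WT anti-PD1, 44.5 (39.4 to 50.01) for A159V IgG and 70.6 (65.8 to 75.6) for A159V anti-PD1 in macrophage-like cells, where the 2 IgG libraries overlapped and the 2 anti-PD1 libraries were higher. In fibroblast-like cells Mmp19 was at 98.4, 71.8, 71.7 and 74.5 CPM, each overlapping the next when ordered by level. Macrophages were above fibroblasts for Mmp19 in WT anti-PD1, and below or overlapping in the other 3 libraries.

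Of the inhibitors, Timp1 was at 2339 CPM (2274 to 2407) for WT IgG, 514 (505 to 523) for WT anti-PD1, 1696 (1635 to 1758) for A159V IgG and 969 (926 to 1013) for A159V anti-PD1 in fibroblast-like cells. These 4 values did not overlap, and both IgG libraries were above both anti-PD1 libraries. In tumor-like cells, of which WT anti-PD1 had 24, Timp1 was at 199.5, 189, 204 and 216 CPM, a range much narrower than in fibroblasts, and in macrophage-like cells at 19.1, 25.6, 14.9 and 23.6 CPM. Timp2, which inhibits proteases and also helps Mmp14 to activate proMmp2, was found in all 4 classes. Its fibroblast level was 684 CPM (648 to 721) for WT IgG, 1052 (1039 to 1064) for WT anti-PD1, 647 (610.1 to 687) for A159V IgG and 1163 (1116 to 1211) for A159V anti-PD1, with the 2 anti-PD1 libraries above the 2 IgG libraries, as for Mmp2. Tumor-like cells held 232 CPM (228 to 236) for WT IgG, 115 (95.4 to 137) for WT anti-PD1, 79.1 (77.2 to 80.95) for A159V IgG and 82.8 (80.98 to 84.7) for A159V anti-PD1, and WT IgG was the high library. Macrophage-like cells held 81.01, 253, 94.8 and 84.2 CPM and neutrophil-like cells 172, 79.96, 106 and 155 CPM, where T-like cells held 40.5, 23.9, 21.9 and 26.6. Thus 8 of the 10 genes had the same highest class in all 4 libraries: fibroblasts for Mmp2, Mmp3, Mmp14, Timp1 and Timp2, macrophages for Mmp12 and Mmp13, and neutrophils for Mmp9.

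Because the classes differed in size and in UMIs per cell, the cells that held most of a transcript were not always those with the highest level. Macrophage-like cells supplied 96.7 to 97.8% of all Mmp12 UMIs and fibroblast-like cells 97.7 to 99.2% of all Mmp3 UMIs. Tumor-like cells, in contrast, supplied 71.98% of the Timp1 UMIs of WT IgG, 85.4% of those of A159V IgG and 89.4% of those of A159V anti-PD1, although their Timp1 level was below that of fibroblasts. In WT anti-PD1, with 24 tumor-like cells, fibroblasts supplied 95.3% of it. The same split held for Timp2, with 86.2%, 79.6% and 68.4% from tumor-like cells and 89.7% from fibroblast-like cells in WT anti-PD1. Mmp9 UMIs came for 91.3% from tumor-like cells in WT IgG and for 56.9% from neutrophil-like cells in WT anti-PD1. These shares depend on the mixing of CD45+ and CD45− cells before loading.

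**Figure D2:**
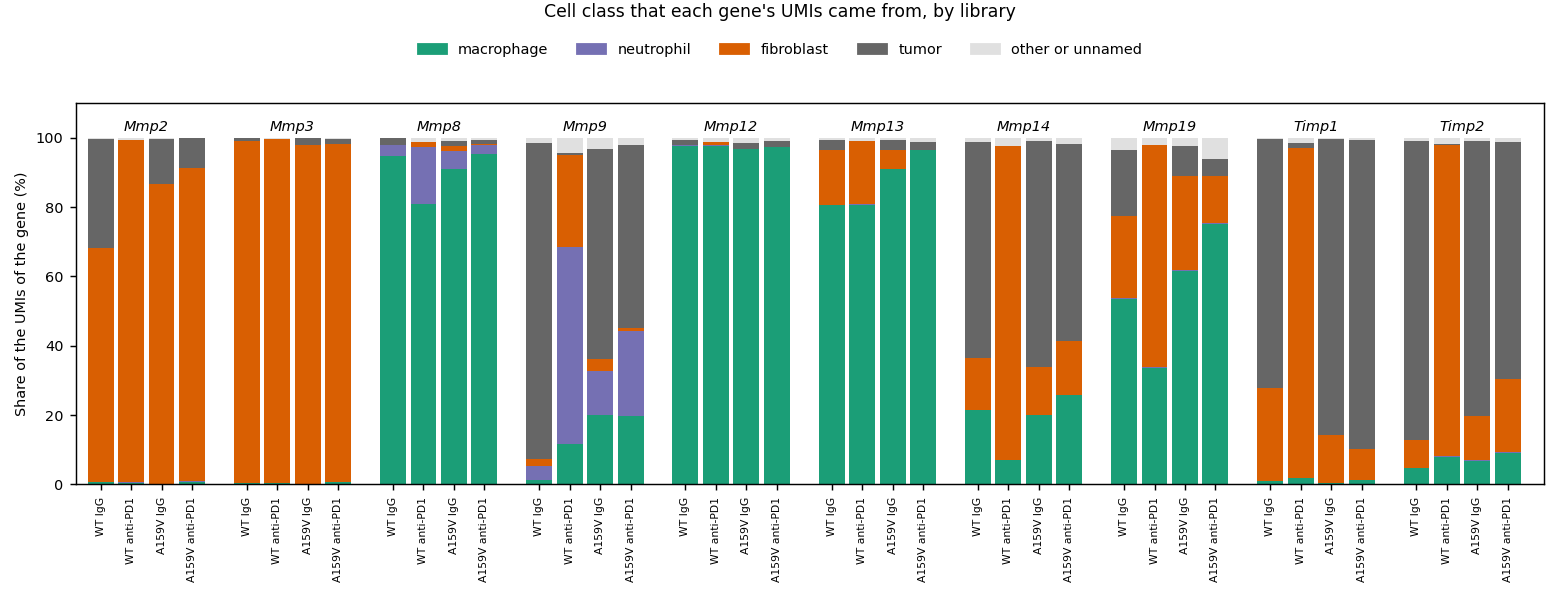
Share of each gene's UMIs (vertical axis, %) that came from each cell class, as 1 stacked bar per library for each of the 10 genes. Mmp12 is almost wholly macrophage and Mmp3 almost wholly fibroblast, whereas Timp1, Timp2 and Mmp14 come mostly from tumor-like cells except in WT anti-PD1.

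The genotype comparison set A159V IgG against WT IgG. A gene was compared in a class when it had at least 20 CPM in 1 of the 2 libraries and 20 UMIs over both, and was counted as past 2-fold when the ratio was at least 2 or at most 0.5 and its exact interval left out 1. Of 19 pairs of gene and class compared, 2 were past 2-fold higher and 2 lower. In macrophage-like cells 2 of 6 genes were higher, Mmp12 with a ratio of 2.43 (2.33 to 2.53) and Mmp8 with 2.17 (1.89 to 2.5), where 0.448% of all 6027 genes compared were past 2-fold higher and 0.415% lower. Mmp13 had a ratio of 1.86 (1.71 to 2.02) and stayed under the bound, and Mmp14, Mmp19 and Timp2 lay at 1.16 (1.09 to 1.24), 0.989 (0.849 to 1.15) and 1.17 (1.05 to 1.3). The make-up of the class differed: cluster 5, led by Cxcl3, Il1a and Inhba, held 14.5% of macrophage-like cells in WT IgG and 25.9% in A159V IgG. With ratios taken within clusters and combined, Mmp12 was at 1.65 and Mmp8 at 1.5, neither past 2-fold, and a pseudocount of 10 CPM put Mmp8 at 1.91.

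In neutrophil-like cells 0 of 3 genes were past 2-fold (all genes: 7.6% higher, 3.53% lower), although Mmp8 had a ratio of 1.98 (0.944 to 4.43), whose interval is wide at these counts. In fibroblast-like cells 1 of 7 was lower and 0 higher, against 1.1% and 1.16% of all genes. That gene was Mmp13, at 0.409 (0.308 to 0.537), and once the cell with the most Mmp13 UMIs was left out of each library it no longer reached the level for comparison. Mmp3 and Timp1 were at 0.738 (0.701 to 0.776) and 0.725 (0.692 to 0.759), and Mmp2 and Timp2 at 1.1 (1.01 to 1.19) and 0.947 (0.874 to 1.02). With each library clustered alone these ratios became 6.92, 3.79, 7.72 and 1.37, and that of Mmp13 3.57, so Mmp3, Timp1, Timp2 and Mmp13 turned direction. With classes gated on marker UMIs they were 2.46, 1.83, 2.89, 1.19 and 1.34, all above 1. In tumor-like cells 1 of 3 was lower, against 4.31% of all genes (1.53% higher). Timp2 fell to a ratio of 0.341 (0.331 to 0.351), Mmp14 lay at 0.591 (0.569 to 0.613) and Timp1 at 1.02 (0.998 to 1.04). The summed fibroblast marker level in tumor-like cells was 454 CPM in WT IgG and 149 in A159V IgG, and its part in the Timp2 ratio was not tested. With each library clustered alone the Timp2 ratio was 0.511.

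Anti-PD1 was compared with IgG first in WT tumors, using the same WT IgG library as the genotype comparison. Of 20 pairs, 5 were past 2-fold higher and 4 lower. Macrophage-like cells had 4 of 7 genes higher and 0 lower, where 8.11% of all genes were higher and 6.8% lower. The largest ratio was that of Mmp12, at 7.84 (7.59 to 8.11), followed by Timp2 at 3.13 (2.88 to 3.39), Mmp19 at 2.31 (2.07 to 2.59) and Mmp13 at 2.15 (1.996 to 2.32). Mmp14 and Timp1 were at 1.37 (1.29 to 1.45) and 1.34 (1.1 to 1.63), and Mmp8 at 0.867 (0.737 to 1.02). These values rest on different clusters. Cluster 7, led by Retnla, Mrc1, Ccl6 and Arg1, held 80.4% of macrophage-like cells in WT anti-PD1 and 3.71% in WT IgG. Within clusters and combined, the ratios were 1.76 for Mmp12, 1.51 for Mmp19, 1.16 for Mmp13 and 0.627 for Timp2, so that none was past 2-fold and Timp2 turned direction. In cells without UMIs of other classes' defining genes, Mmp13 was at 1.52 and Mmp19 at 1.68, and with equal weight per cell at 1.74 and 1.98. The first of these settings kept 340 of 1940 macrophage-like cells in WT anti-PD1 but 2412 of 2989 in WT IgG. The summed fibroblast marker level in macrophage-like cells was 53.4 CPM in WT IgG and 738 in WT anti-PD1, with 11 of 11 markers detected, and its part in the Timp2 and Mmp14 values was not tested. Mmp12 and Mmp13 stood higher in macrophages than in fibroblasts of WT anti-PD1, at 11.5 and 18.5 CPM in the latter.

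In neutrophil-like cells 1 of 6 genes was higher and 1 lower (all genes: 10.7% and 9.03%). Mmp9 rose to a ratio of 2.99 (2.18 to 4.2) and Timp2 fell to 0.466 (0.297 to 0.751). The summed level of the 12 macrophage markers in these cells was 1558 CPM in WT IgG and 555 in WT anti-PD1, with 10 and 12 of them detected. That of the 11 fibroblast markers was 50.9 and 1256 CPM, with 3 and 11 detected. The part of either in the Mmp9 and Timp2 ratios was not tested. Cluster 15 held 98.8% of neutrophil-like cells in WT anti-PD1, and cluster 16 held 86.3% in WT IgG. Mmp9 was at 791 (735 to 849.6) CPM in cluster 15 of WT anti-PD1 and 259.7 (181 to 361) in cluster 16 of WT IgG, so cluster and library cannot be told apart there. Within clusters and combined, the Mmp9 ratio was 1.99, just under the bound. That ratio rests on only 13 cells of WT IgG in cluster 15 and 7 cells of WT anti-PD1 in cluster 16. With classes gated on marker UMIs the Mmp9 ratio was 8.76 and the Timp2 ratio 1.005, the latter no longer past 2-fold. Mmp2 had 0 UMIs in the neutrophil-like cells of WT IgG and 20.8 CPM in WT anti-PD1, near the level of stray RNA.

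In fibroblast-like cells 3 of 7 genes were lower and 0 higher, against 5.41% and 4.38% of all 7004 genes. Mmp3 fell to 0.275 (0.266 to 0.285), Timp1 to 0.22 (0.213 to 0.227) and Mmp13 to 0.182 (0.154 to 0.215). Leaving out the cell with the most UMIs of the gene from each library put Mmp3 at 0.293 and Timp1 at 0.238, while Mmp13 no longer reached the level for comparison. Mmp2, Mmp14 and Timp2, the set that acts together in the activation of proMmp2, lay on the other side of 1 at 1.83 (1.73 to 1.94), 1.86 (1.77 to 1.96) and 1.54 (1.46 to 1.62), none past 2-fold. The directions of Mmp3 and Timp1 rest on how the WT IgG cells were classed. When each library was clustered alone, WT IgG had 826 fibroblast-like cells in place of 132 and 1339 tumor-like cells in place of 2033, and the ratios were 2.74 for Mmp3 and 1.03 for Timp1. Mmp2, Mmp14 and Timp2 were then past 2-fold higher, at 13.6, 5.97 and 2.37. With gated classes Mmp3 was at 1.32 and Timp1 at 0.761. With the libraries clustered together, the 11 fibroblast markers summed to 454 CPM in the 2033 tumor-like cells of WT IgG. In its 132 fibroblast-like cells, Col3a1 alone stood at 24028 CPM. The kind of the cells that changed class was not tested. Tumor-like cells gave no ratio, since WT anti-PD1 held 24 of them.

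Anti-PD1 was then compared with IgG in A159V tumors, with the A159V IgG library of the genotype comparison as the control. Of 20 pairs, 0 were past 2-fold higher and 1 was lower. In macrophage-like cells 0 of 7 genes passed (all genes: 0.711% higher, 0.215% lower). Mmp12 was at 0.65 (0.628 to 0.672) and Mmp13 at 0.822 (0.765 to 0.884), while Mmp19 and Timp1 were at 1.59 (1.38 to 1.82) and 1.58 (1.24 to 2.02). Of 3 genes 0 passed in neutrophil-like cells (all genes: 4.0% and 8.83%), with Mmp9 at 1.01 (0.657 to 1.56), and 0 of 3 in tumor-like cells (all genes: 0.137% and 0.0608%), with Timp1, Timp2 and Mmp14 at 1.06 (1.04 to 1.08), 1.05 (1.01 to 1.08) and 1.19 (1.15 to 1.24). In fibroblast-like cells 1 of 7 was lower (all genes: 3.47% lower, 2.55% higher), which was Mmp13 with 2 UMIs against 72, of which 70 were in 1 cell. Mmp2 and Timp2 were at 1.91 (1.78 to 2.05) and 1.8 (1.67 to 1.93), just under the bound, Mmp3 was at 1.49 (1.42 to 1.57) and Timp1 at 0.571 (0.539 to 0.605).

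**Figure D3:**
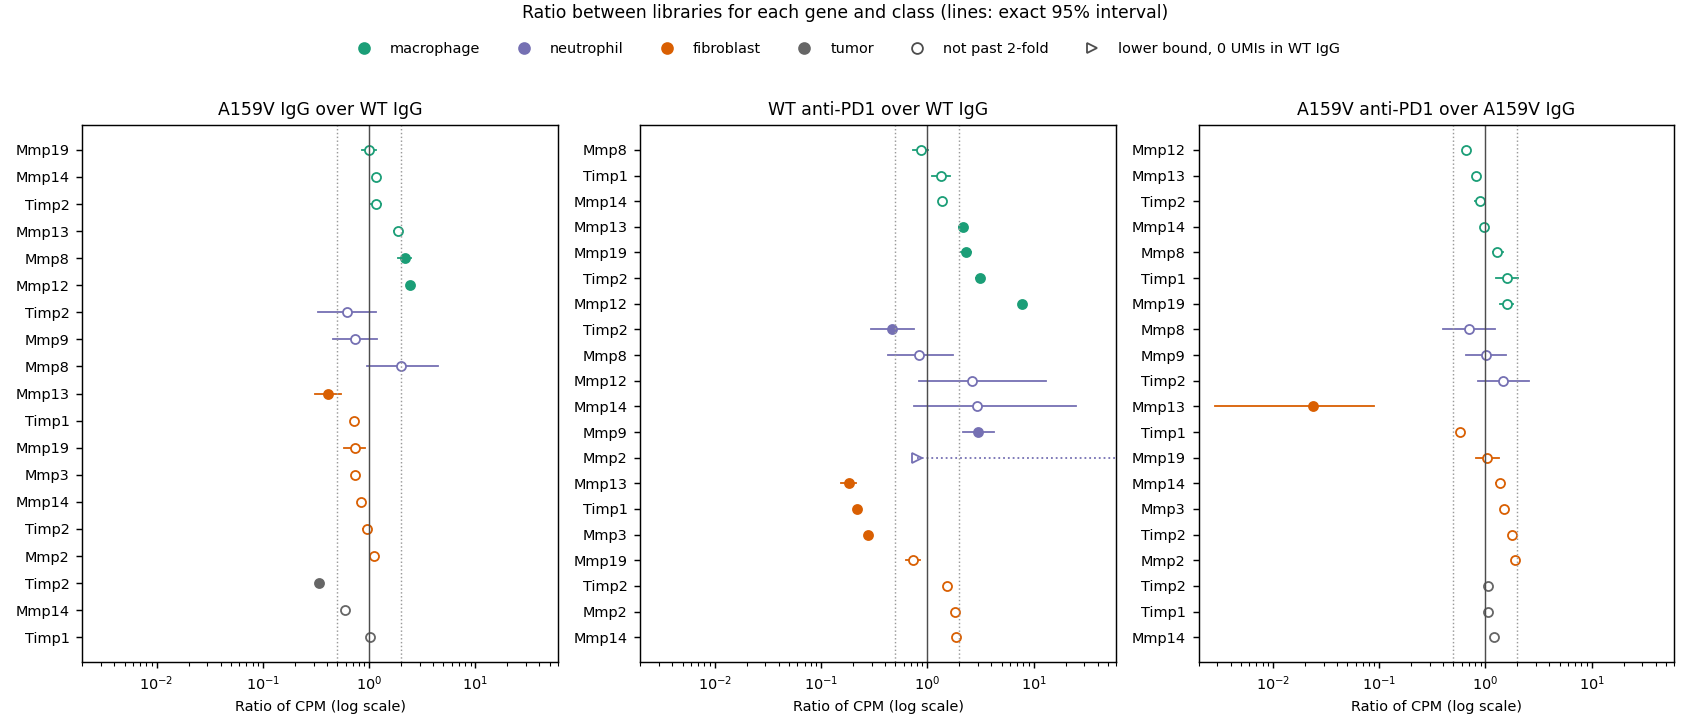
Ratio of CPM between libraries (horizontal axis, log scale) for each gene and class compared, with colors for the class, lines for the exact 95% interval, filled points for pairs past 2-fold and dotted lines at 0.5 and 2. Mmp12 in macrophage-like cells of WT anti-PD1 lies farthest to the right among the filled points, and A159V anti-PD1 over A159V IgG has 1 filled point, Mmp13 in fibroblast-like cells.

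Over the members compared, the median log2 ratio in macrophage-like cells was 0.56 for genotype, 1.10 for anti-PD1 in WT and -0.03 for anti-PD1 in A159V, beside 0.0086, 0.04 and 0.0051 over all genes compared. In fibroblast-like cells it was -0.44, -0.45 and 0.45, beside 0.0075, 0.08 and -0.0015 over all genes. The median over all genes was within 0.1 of 0 in each class and comparison except the genotype comparison of neutrophil-like cells, at 0.14.

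Within the macrophage-like cells, the members split by cluster. Mmp12 was concentrated in clusters 5 and 7, at 1917, 1657, 3011 and 1829 CPM in cluster 5 and 1046, 3624, 742 and 474 CPM in cluster 7. WT anti-PD1 was highest in cluster 7 but lowest in cluster 5, where A159V IgG was highest, with a ratio to WT IgG of 1.57 (1.5 to 1.64). In cluster 7 the ratio of WT anti-PD1 to WT IgG was 3.46 (3.17 to 3.79). In cluster 4, led by C1q genes, Mmp12 was at 128, 173, 448 and 313 CPM, with A159V IgG at 3.5 (3.1 to 3.95) times WT IgG. Mmp13 and Mmp8 were both highest in cluster 5 in each library, Mmp13 at 416, 507, 532 and 421 CPM and Mmp8 at 151, 111, 191 and 246 CPM. Timp2 was highest in cluster 7, at 548, 289.96, 664 and 494 CPM, with WT anti-PD1 the lowest there and a ratio to WT IgG of 0.529 (0.466 to 0.603). WT anti-PD1 thus had the highest Timp2 over the whole class and the lowest within the cluster that held most of its macrophages. Mmp14 was highest in cluster 4 in the other 3 libraries, and in cluster 5 in WT anti-PD1, at 577 CPM against 445 in cluster 4. Clusters 2 and 3, led by Chil3, Ly6c2 and Adgre4, held at most 47.4 CPM of Mmp12 and 24.4 CPM of Mmp13 in the libraries with at least 50 of their cells.

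**Figure D4:**
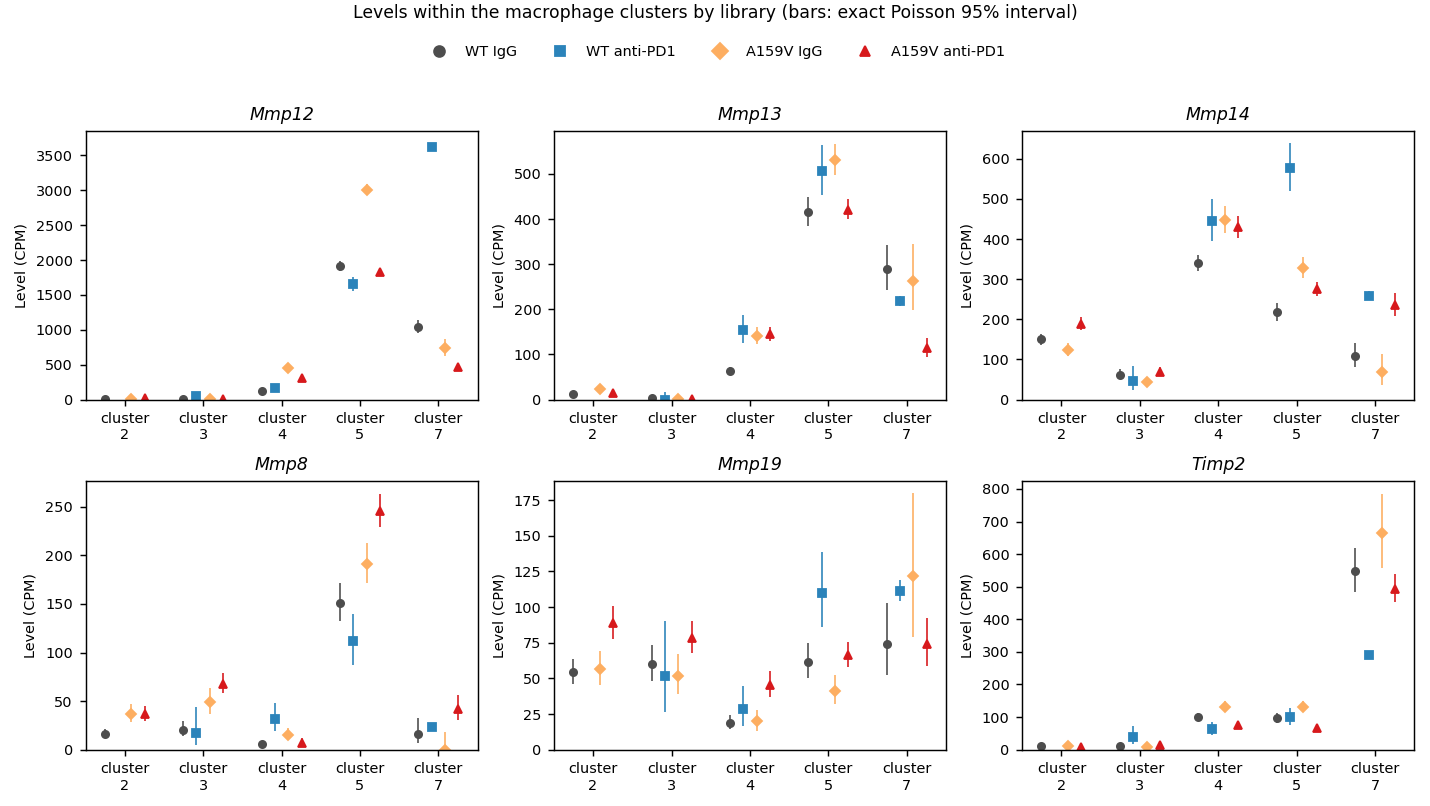
Level (vertical axis, CPM, linear scale that differs between panels) of 6 genes in the 5 macrophage clusters, with 1 point per library that has at least 50 cells in the cluster and exact Poisson 95% intervals as lines. Mmp12 is high in clusters 5 and 7, Mmp8 and Mmp13 in cluster 5 and Timp2 in cluster 7.

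Fibroblast-like cells fell into cluster 12, led by Pi16, Clec3b and Sfrp4, and cluster 13, led by Tnc, Cilp and Lrrc15. Cluster 12 held 57.6, 45.96, 58.1 and 80.6% of these cells. Mmp3 was higher in cluster 12, at 3040.2, 678, 1982 and 2379.6 CPM, than in cluster 13, at 791, 414 and 868 CPM in the 3 libraries with at least 50 cells of it. Timp1 went the other way, at 1261, 305, 887 and 728 CPM in cluster 12 and 3400.1, 666 and 2454 CPM in cluster 13. WT anti-PD1 was the low library for both genes in both clusters. Mmp2 and Timp2 were higher in cluster 12, and WT anti-PD1 was above WT IgG in both clusters, with ratios for Mmp2 of 2.01 (1.87 to 2.17) in cluster 12 and 1.76 (1.61 to 1.93) in cluster 13. In tumor-like cells, cluster 8 held 60.8% of the cells of WT IgG but 5.85% and 4.86% of those of A159V IgG and A159V anti-PD1. Clusters 8 and 1 had no tumor marker among their 10 leading genes, and cluster 0 had 2. Timp2 was highest in cluster 8, at 323, 195 and 119.8 CPM. The A159V IgG over WT IgG ratio of Timp2 was 0.604 (0.554 to 0.657) in cluster 8, 0.562 (0.534 to 0.593) in cluster 0 and 0.76 (0.709 to 0.816) in cluster 1, below 1 in each and past 2-fold in none. Combined within clusters it was 0.62.

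**Figure D5:**
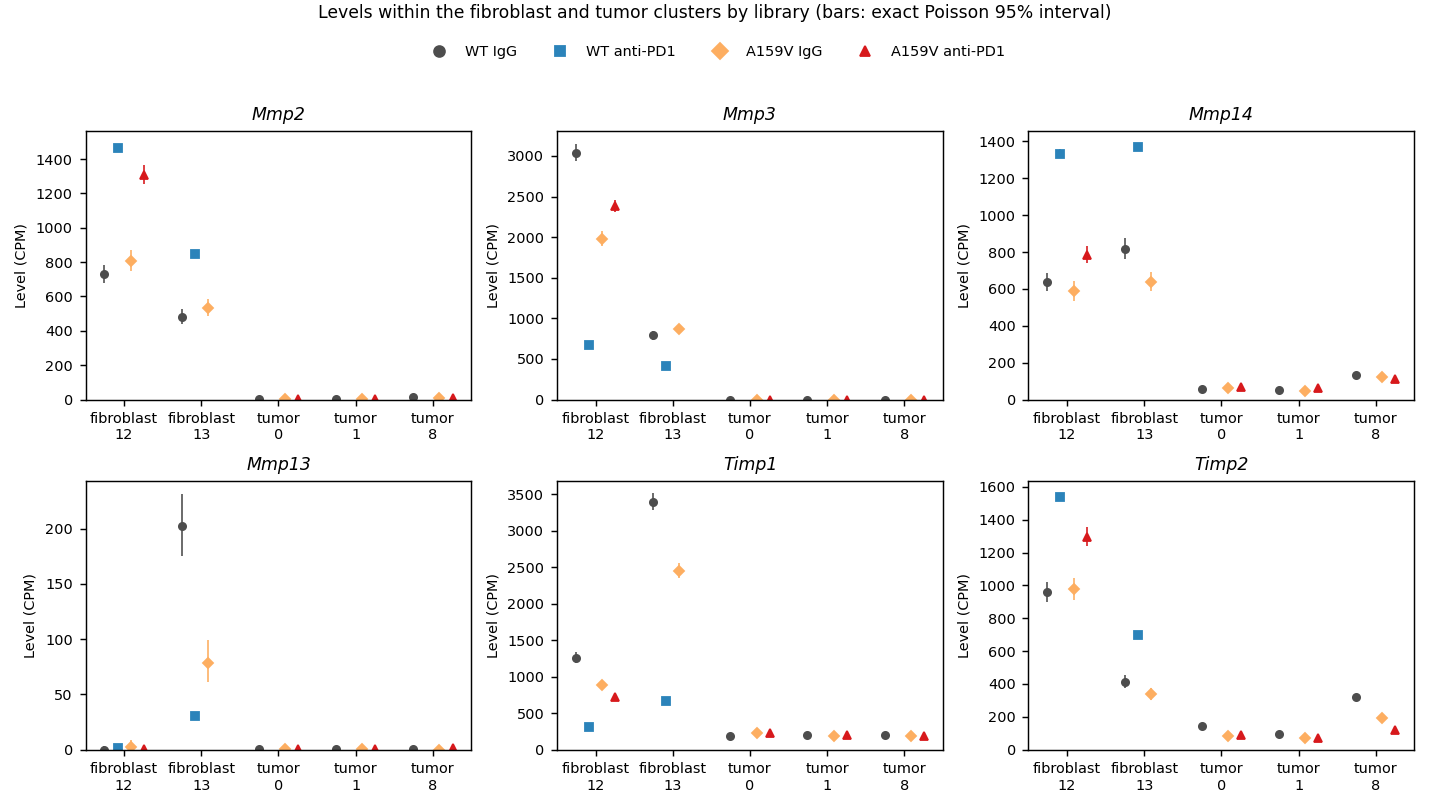
Level (vertical axis, CPM, linear scale that differs between panels) of 6 genes in the fibroblast clusters 12 and 13 and the tumor clusters 0, 1 and 8, with 1 point per library that has at least 50 cells in the cluster and exact Poisson 95% intervals as lines. Mmp3 and Timp1 are low in WT anti-PD1 in both fibroblast clusters, and Timp2 is highest in tumor cluster 8 among the tumor clusters.

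Shares of cells with a UMI were compared after each cell was thinned to 1000 UMIs. Mmp12 was found in 8.3, 24.6, 16.2 and 9.95% of macrophage-like cells and 0.209, 2.93, 0.602 and 1.02% of T-like cells. Before thinning the macrophage shares were 10.6, 33.3, 18.6 and 12.8%, at median depths of 3066, 3667.5, 2008.5 and 2814 UMIs in macrophage-like and 2797, 3073, 1659 and 2199.5 in T-like cells. The order of the thinned shares was that of the CPM levels. Mmp9 was found in 25.3, 45.1, 18.5 and 18.4% of thinned neutrophil-like cells, and again WT anti-PD1 was highest. Mmp3 was found in 59.8, 27.9, 54.5 and 59.4% and Timp1 in 61.4, 23.7, 54.5 and 42.4% of thinned fibroblast-like cells, with WT anti-PD1 lowest for both. Mmp12 was uneven among macrophages: the 10% of cells with the most Mmp12 UMIs held 91.1 to 99.5% of them.

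In each library the share of macrophage-like cells with Mmp13 was higher among cells with Mmp12 than among cells without it. Among thinned cells with an Mmp12 UMI, 34.4, 19.5, 33.2 and 27.03% also had one of Mmp13, against 2.95, 4.72, 2.69 and 3.79% of cells without Mmp12. For Mmp8 the shares were 15.9, 4.82, 14.9 and 19.2% and 1.52, 1.57, 3.55 and 4.79%. Mmp14 showed no such one-sided pattern, with 15.9, 19.04, 27.7 and 22.97% against 16.4, 23.2, 16.7 and 18.8%. Cells of 1 library share its stray RNA and are not replicates, so these are descriptions without a test.

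The genes whose levels ran most like those of each member were ranked by Pearson correlation of log2(CPM + 1) over 65 profiles of cluster and library, among 8762 genes. The profiles share libraries, and the values are a description. Mmp2 was closest to Col3a1 (0.97), Lum (0.963) and Cd248 (0.952), the first a fibrillar collagen and the second a collagen-binding proteoglycan. Mmp3 was closest to Slit3 (0.968), Scn7a (0.965) and Sulf1 (0.964). Mmp12 and Mmp13 had the same 3 nearest genes, which for Mmp12 were Pf4 (0.897), AU022793 (0.859) and Arg1 (0.848), among them the chemokine Pf4 and arginase Arg1. Mmp8 ran closest to Gm13986 (0.889), Clec4e (0.886) and Cxcl2 (0.885), of which Cxcl2 is a neutrophil-attracting chemokine. For Mmp9 the nearest were Ccdc126 (0.769), Ankrd22 (0.739) and Mrgpra2b (0.718), for Mmp14 Itgb5 (0.878), Itpripl2 (0.873) and Dock1 (0.853) and for Mmp19 Lrp1 (0.904), Rnf150 (0.884) and Cd302 (0.881). Timp1 was closest to Ddr2 (0.879), Morf4l2 (0.862) and Serpinh1 (0.862), including a collagen receptor and a collagen chaperone, and Timp2 to Thra (0.876), Rnase4 (0.85) and Pmp22 (0.82).

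Related genes were read from lists of proteases, inhibitors and substrates. Most of the 17 other MMP and TIMP genes measured were too low to compare. In macrophage-like and neutrophil-like cells 0 were compared, in fibroblast-like cells 3 to 4 and in tumor-like cells 1 or 0. Among those compared, 1 was past 2-fold: Mmp11, a stromelysin, fell in tumor-like cells from 60.6 to 13.8 CPM between WT IgG and A159V IgG, with a ratio of 0.228 (0.213 to 0.243). It was 1 of 1 compared in that class, and Mmp11 was among the leading genes of tumor cluster 8. In the same class and comparison, where 4.31% of all genes were lower and 1.53% higher, 2 of 4 plasminogen activation genes were lower, which were Plat, tissue plasminogen activator, at 0.243 (0.222 to 0.266) and the scavenger receptor Lrp1 at 0.252 (0.229 to 0.277). Of matrix substrates, 3 of 9 were lower there, Col3a1 at 0.113 (0.106 to 0.119), Col6a1 at 0.131 (0.126 to 0.136) and Spp1 at 0.468 (0.465 to 0.471), beside the fibroblast marker sums given above, and Col3a1 is itself one of those markers. Of 9 cathepsins and cystatins 1 was lower, Ctss at 0.434 (0.396 to 0.474). In macrophage-like cells of the genotype comparison (0.448% of all genes higher, 0.415% lower), 3 of 10 neutrophil granule genes could be compared. Of these 3, 2 were higher, Lcn2 at 6.59 (4.42 to 10.1) and S100a8 at 2.81 (2.2 to 3.61). S100a8 is itself one of the neutrophil markers summed above, and the part of stray RNA was not tested. Against 11906 and 7855 CPM in neutrophil-like cells, it went from 10.4 to 29.1 CPM in macrophage-like cells. Lcn2, which binds siderophores, also moved in other cells: it went from 3.09 to 20.3 CPM there, from 7.02 to 31.6 CPM in tumor-like cells at a ratio of 4.5 (4.08 to 4.98), and from 145 to 49.2 CPM in fibroblast-like cells at 0.339 (0.263 to 0.433). The inhibitor Serpinb2 was lower in fibroblast-like cells, at 0.39 (0.353 to 0.43), as 1 of 7, where 1.1% of all genes were lower and 1.16% higher. This ratio and that of Lcn2 in fibroblast-like cells use WT IgG, and neither was recomputed with its fibroblasts classed in other ways.

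In macrophage-like cells of WT anti-PD1, where 8.11% of all genes were higher and 6.8% lower, 5 of 11 cathepsins and cystatins were higher and 0 lower. These were the lysosomal proteases Ctsl at 7.63 (7.45 to 7.82), Ctsd at 4.06 (3.94 to 4.19), Ctsk at 3.22 (2.75 to 3.79), Ctsb at 2.63 (2.59 to 2.67) and Lgmn at 2.27 (2.23 to 2.31). Adam15 was higher as 1 of 5 ADAM and ADAMTS proteases, at 3.24 (2.9 to 3.63). Of matrix substrates 5 of 7 were higher, led by the collagens Col1a1, Col1a2 and Col3a1, all of them among the fibroblast markers whose sum in these cells is given above. Cluster 7 held 80.4% of these cells against 3.71% in WT IgG, and the lists were not compared within clusters. In fibroblast-like cells of WT anti-PD1 (4.38% of all genes higher, 5.41% lower), Serpinb2 was lower, at 0.118 (0.111 to 0.126), and the plasminogen activator Plau higher, at 2.47 (1.98 to 3.11), 1 lower and 1 higher of 7. Of ADAM and ADAMTS proteases 2 of 13 were higher, Adamts15 at 2.33 (2.03 to 2.7) and Adam12 at 2.2 (2.03 to 2.38), and of matrix substrates 1 of 15 was higher and 4 lower, among them Col4a1 at 0.252 (0.236 to 0.269) and Spp1 at 0.289 (0.278 to 0.301). The lists were not recomputed with the WT IgG fibroblasts classed in other ways. In neutrophil-like cells of WT anti-PD1, 4 of 8 matrix substrates were higher, beside the fibroblast marker sums above, and 1 was higher and 2 lower of 5 plasminogen activation genes and of 11 cathepsins and cystatins alike, where 10.7% of all genes were higher and 9.03% lower. Of 5 neutrophil granule genes compared in those cells, 0 were higher and 2 lower. These were Lcn2 at 0.372 (0.237 to 0.597) and S100a9, itself a neutrophil marker, at 0.462 (0.442 to 0.483).

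Under anti-PD1 in the A159V tumors, Serpinb2 went opposite ways in different cells. It was lower in fibroblast-like cells, at 0.419 (0.36 to 0.487), as 1 of 7 (3.47% of all genes lower), and higher in macrophage-like cells, at 2.22 (1.91 to 2.59), as 1 of 5 (0.711% of all genes higher). In neutrophil-like cells 5 of 10 cathepsins and cystatins were lower, led by Cst3 at 0.252 (0.18 to 0.35) and Lgmn at 0.279 (0.179 to 0.429), where 8.83% of all genes were lower. The summed macrophage marker level in those cells was 2661 CPM with IgG against 1072 CPM with the antibody to PD1, and its part in these ratios was not tested.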

How the data were processed

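Single-cell suspensions of 4 MC38 tumor groups, 1 library each, had been split into CD45+ and CD45− cells on beads, remixed and run on 10x Genomics 3′ v3.1 chemistry, which marks strand. The authors deposited raw UMI counts per gene and called cell, and per the file headers Cell Ranger 7.2.0 made them, whereas the submitters' processing notes give 5.0.1 and mm10. The deposited counts come before the study's own removal of ambient RNA and doublets, so stray RNA remains in them, and reads in introns may be included.

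Cells with more than 500 genes were kept (432 to 590 barcodes left out per library), and predicted doublets were removed by a simulated-doublet score at a rate of 0.8% per 1000 cells (374 to 631 per library). The 4 libraries were clustered together on 2000 variable genes, without any MMP or TIMP gene, by 20 principal components, 20 neighbors and Leiden clustering at resolution 1, into 22 clusters. Clusters were named from fixed marker lists, and after a first output was seen the naming rule was changed so that a list competed only with at least 3 of its markers detected. The members and all lists were chosen with earlier results of these data known. All 10 members are named, with the 3 most like genes for each and the rule allowed, from the pathway lists, the genes past 2-fold with the 3 largest ratios in each direction per comparison. Other listed genes were chosen after their values were seen. A gene of the plasminogen activation list is not reported here, and the counts leave it out.

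Levels are UMI sums of a class, scaled to its total and given as CPM with exact Poisson intervals. Ratios carry exact conditional binomial intervals and shares exact Clopper-Pearson ones, all at 95% and for counting error only. Libraries held 54402632 to 125227747 UMIs. A class needed 50 cells in a library to give a ratio. Genotype was compared under IgG, and anti-PD1 with IgG within each genotype, so these 3 comparisons share control libraries. Within-cluster ratios were combined with Mantel-Haenszel weights over the clusters with any cells in both libraries, without the minimum of 50 cells. No test was possible with 1 library per group. The statistics were tested on simulated data. Alternatives changed the cell filter, doublets, clustering, class definition, scaling, pseudocount and minimum level, and their effect is given at the end. Genes were placed with GENCODE vM21 by identifier, and promoters were taken from RefSeq on GRCm38.p6. Python 3.11.15, numpy 2.4.6, scipy 1.17.1, scanpy 1.11.5, scikit-learn 1.9.0, igraph 0.11.9 and matplotlib 3.10.9 were used.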

Additional observations from a re-analysis of the deposited data

Results flagged for a closer look

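The ratio of anti-PD1 to IgG lay on opposite sides of 1 in WT and A159V tumors for 4 pairs of gene and class. Each group had 1 library, and the difference between the ratios was not tested. In macrophage-like cells, the ratio of anti-PD1 to IgG for Mmp12 was 7.84 (7.59 to 8.11) in WT and 0.65 (0.628 to 0.672) in A159V. For Mmp13 it was 2.15 (1.996 to 2.32) in WT and 0.822 (0.765 to 0.884) in A159V, and for Timp2 3.13 (2.88 to 3.39) and 0.888 (0.802 to 0.985). In fibroblast-like cells, Mmp3 had a ratio of 0.275 (0.266 to 0.285) for the WT tumors and 1.49 (1.42 to 1.57) for the A159V tumors. This opposite direction rests on how the WT IgG fibroblasts were classed, since the ratio in WT was 2.74 with each library clustered alone and 1.32 with classes gated on marker UMIs, above 1 as in A159V. With the libraries clustered together, Mmp3 was lowest in WT anti-PD1 in both fibroblast clusters. The kind of the cells that changed class was not tested. With macrophage ratios taken within clusters and combined, Timp2 was at 0.627 in WT, below 1 as in A159V, while Mmp12 and Mmp13 stayed above 1 at 1.76 and 1.16. Cluster 7 held 80.4% of macrophage-like cells in WT anti-PD1 and 7.03% in A159V anti-PD1. Within that cluster the 2 ratios for Mmp12 were 3.46 (3.17 to 3.79) and 0.638 (0.532 to 0.77), and those for Timp2 were 0.529 (0.466 to 0.603) and 0.744 (0.615 to 0.905). The IgG side of these ratios rests on 111 cells of cluster 7 in WT IgG and 66 in A159V IgG. In cluster 5, at the levels given above, Mmp12 was lower with anti-PD1 than with IgG in both genotypes, so its opposite direction was not seen there.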

How the results depend on the processing

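Of 84 counts of pairs past 2-fold under 14 alternatives, 65 were within 1.5 times the reported count. Of 190 values of single pairs, 182 kept their direction, 165 stayed past 2-fold in that direction and 2 were past 2-fold in the other. A pair that could no longer be compared under an alternative gave no value and is not among the 190. Dropping the minimum level leaves the ratio of each reported pair unchanged, so the agreement under that alternative was fixed in advance. The 2 alternatives that left out the top cell or combined ratios within clusters were chosen after seeing the data. Ratios within clusters and with equal weight per cell had no interval, so pairs there were counted as past 2-fold on the ratio alone. With the pseudocount, the interval was that of the main ratio. With each library clustered alone, the genotype counts were 8 higher and 0 lower and those of anti-PD1 in WT 15 and 1, with log2 ratios in fibroblasts of 1.84 for Mmp13 by genotype, and of 1.46 for Mmp3, 0.80 for Mmp13 and 0.0399 for Timp1 under anti-PD1 in WT. WT IgG then had 826 fibroblast-like cells, and WT anti-PD1 had 118 tumor-like cells, so that tumor-like cells entered the anti-PD1 comparison in WT. The pairs compared thus differ between alternatives. The share of all genes past 2-fold was computed for the main setting only, so the counts under alternatives stand without that background. With classes gated on marker UMIs, 6 pairs were higher by genotype, 10 by anti-PD1 in WT and 4 in A159V, with log2 ratios of 0.42 for fibroblast Mmp13 by genotype, 0.41 for fibroblast Mmp3 and 0.00694 for neutrophil Timp2 under anti-PD1 in WT. With no minimum level, 5 pairs were higher and 5 lower by genotype, 9 higher by anti-PD1 in WT, and 2 higher and 3 lower in A159V. A pseudocount of 10 CPM left 1 pair higher by genotype. In cells without UMIs of other classes' defining genes, 0 were lower by anti-PD1 in A159V. Without the top cell, 1 was lower by genotype and 0 by anti-PD1 in A159V. Within clusters, 1 was higher and 1 lower by genotype and 2 higher by anti-PD1 in WT, where macrophage Timp2 turned to a log2 ratio of -0.67. These 3 higher pairs were all in neutrophil-like cells (Mmp8, and Mmp12 and Mmp14), whose counts are low. Their main intervals, 0.944 to 4.43, 0.842 to 13.1 and 0.757 to 25.2, did not leave out 1, so they could not pass the rule used elsewhere. The number of members with the same highest class was 7 to 9 of 10 under the alternatives, and with gated classes Mmp12 was highest in neutrophil-like cells in WT IgG and A159V anti-PD1. Where no value is given for it above, the cause of a change was not tested. No paired analysis was possible because each group had 1 library, and no library could be left out. Under 1000-gene filtering, neutrophil-like cells fell under 50 per library and gave no ratio. Neutrophil-like cells had median depths of only 1324 to 1525 UMIs, so their ratios have wide intervals.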

Other observations

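Other MMP and TIMP genes were spread by cluster as well, over all libraries together. Timp3, the inhibitor that binds to the matrix, stood at 424 and 432 CPM in fibroblast clusters 12 and 13, and Mmp23 at 214 and 218 CPM. Reck, a membrane-anchored inhibitor of MMPs, was at 87.8 CPM in cluster 12 and 34.97 CPM in cluster 13. Mmp11 was at 86.1 CPM in tumor cluster 8. Among macrophage clusters, Mmp25 reached 22.2 CPM in cluster 2 and Mmp27 22.9 CPM in cluster 5, where fibroblast cluster 12 held 26.7 CPM of Mmp27.

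In fibroblast-like cells, in 3 of 4 libraries the share of cells with Timp1 was lower among cells with Mmp3 than among those without. Among cells thinned to 1000 UMIs, Timp1 was found in 56.96, 20.6, 55.7 and 38.8% of cells with Mmp3 and 67.9, 24.9, 53.1 and 47.8% of cells without it, in the order of libraries used above. For Mmp2 and Mmp14 the shares were 53.03, 72.1, 50.5 and 52.4% of cells with Mmp2 and 42.4, 65.9, 52.9 and 51.3% of cells without it. These shares are given without a test.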
